A study of Mus musculus with 27 samples.

Results

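The 10 genes described here are the ETS factor Ets2, the Egr co-repressors Nab1 and Nab2, and the immediate early factors Egr1, Egr2, Egr3, Fos, Fosb, Jun and Junb. They were measured by the 17 of 45281 probes whose gene symbol on the array equals one of these names, and the array carries 30869 symbols in all. Ets2 and Nab1 were chosen by their difference between Mbd2-/- and WT cDC1s on these same arrays, and the others for their known relation to them, so the values of that contrast are given below as a description with no test. The samples were myeloid cells sorted from the colon lamina propria of mice treated with 2% dextran sulphate sodium (DSS) in the drinking water for 6 days, a chemical injury of the epithelium that leads to colitis. Every group, controls included, came from DSS-treated mice, and no untreated colon was measured. Mbd2-/- mice lacked the methyl-CpG-binding protein Mbd2 in all cells, were on a C57BL/6 background, and were compared with age- and sex-matched adult littermates that were wild type (WT) and, where possible, co-housed. Monocytes were gated as CD45+Ly6G-Siglec-F-CD11b+Ly6C+ cells (5 WT and 5 Mbd2-/- arrays), macrophages as CD45+ cells negative for Ly6G, Siglec-F and Ly6C and positive for CD11b, F4/80 and MHC-II (5 WT and 5 Mbd2-/- arrays), and type 1 conventional dendritic cells (cDC1s) as CD45+Ly6G-Siglec-F-CD11b-CD11c+CD103+ cells (2 WT and 3 Mbd2-/- arrays). The sources used here give the mice pooled in a replicate as 1 to 5 in one place and up to 10 in another, and the labels do not give the number for each array. The replicates came from separate experiments, and the labels name neither the experiment nor the mice of an array. The p-values therefore measure the spread between these pools, with experiment and any mice shared between cell types not accounted for.

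Immediate early genes are switched on within minutes of a stimulus, without new protein synthesis, largely through MAP kinase signalling to factors already bound at their promoters. Their products are themselves transcription factors: Egr1, Egr2 and Egr3 are zinc finger proteins, Nab1 and Nab2 bind them and restrain their activity, and Fos and Fosb pair with Jun or Junb to form AP-1. Ets2 is a member of the ETS family that MAP kinases phosphorylate, and in myeloid cells it acts beside AP-1. Warm enzymatic digestion of tissue is itself known to switch on these genes, and all of the cells here were released that way.

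Mbd2 binds methylated CpG dinucleotides, so the 250 bases before the annotated start are shown for the members with the largest difference between genotypes in cDC1s (Ets2 and Nab1) and in monocytes (Fosb). The sequences are those of RefSeq on build GRCm38.p6, written 5′ to 3′ on the strand of the gene, and capitals mark each CpG. The start used for Nab1 and Fosb is not the outermost base of the gene, so the window of Nab1 lies inside the annotated span of the gene and that of Fosb partly so. The windows lie at chr16:95702157-95702406 (plus strand), chr1:52500449-52500698 (minus strand) and chr7:19310046-19310295 (minus strand). 
Ets2: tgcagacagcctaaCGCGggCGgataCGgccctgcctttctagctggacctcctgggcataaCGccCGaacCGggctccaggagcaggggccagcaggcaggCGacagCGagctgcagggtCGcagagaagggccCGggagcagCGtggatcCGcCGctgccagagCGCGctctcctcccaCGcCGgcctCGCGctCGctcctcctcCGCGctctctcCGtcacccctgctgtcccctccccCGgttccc
Nab1: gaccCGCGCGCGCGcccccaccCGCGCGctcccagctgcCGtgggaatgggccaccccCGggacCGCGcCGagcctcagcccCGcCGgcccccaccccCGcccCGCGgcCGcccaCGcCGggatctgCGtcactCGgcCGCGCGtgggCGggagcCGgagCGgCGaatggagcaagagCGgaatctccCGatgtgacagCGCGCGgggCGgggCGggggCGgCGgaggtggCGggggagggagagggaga
Fosb: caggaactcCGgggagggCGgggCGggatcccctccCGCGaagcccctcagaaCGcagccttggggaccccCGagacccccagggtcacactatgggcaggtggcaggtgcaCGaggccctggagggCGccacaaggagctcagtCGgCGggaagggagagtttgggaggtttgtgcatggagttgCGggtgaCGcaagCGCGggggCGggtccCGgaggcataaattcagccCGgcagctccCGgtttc
The Nab1 window held 40 CpGs, a number reached by 1.31% of the 32851 windows of this length, and the Ets2 window held 25, reached by 10.7%. The Fosb window held 19 CpGs, and the median over all windows was 6. Methylation was not measured in these samples. On both strands, the letters GCGNGGGCG, the site that Egr proteins recognise, matched 3 times in the Nab1 window and 1 time in that of Fosb (the letters contain CpGs themselves), against 4.7% of all windows with at least 1 match. The letters TGANTCA (AP-1), TGACGTCA (the cyclic AMP response element) and CCGGAAG (ETS) were in none of the member windows, and all windows held them in 6.75%, 1.55% and 6.91% of cases. A CArG box, bound by serum response factor, was found in 4 of the 5 windows of Egr2, which has several annotated starts, and in 1.47% of all windows. The Egr2 windows that begin at chr10:67537619, 67537620 and 67537680 overlap, so that 1 box can be counted more than once. Windows were found for 8 of the 10 members, and none is given for Egr1 and Egr3.

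The measure throughout was the normalised intensity of a probe on the log2 scale, so that a difference of 1 is a 2-fold difference. An array's mean raw intensity ranged from 171.5 to 353.1 and its number of probes above the negative controls from 16024 to 18608. The Mbd2-/- cDC1 arrays were the dim ones of their cell type (171.5 to 227.6, against 264.6 to 291.9 for WT cDC1s). The single Mbd2 probe was not above background on any array, WT included, so it gives no check of the genotype labels. The columns of the deposited table fall into blocks of 6, as on a BeadChip of 6 arrays, although no label names the chip. Monocytes and macrophages lay in different blocks and the WT and Mbd2-/- cDC1s shared none, so position cannot be told apart from cell type in the first case and from genotype in the second. Both genotypes of monocytes, and both of macrophages, lay together in 2 blocks each. The cell types carried their own markers: the summed level of 10 detected macrophage markers was 15.43 to 15.67 in macrophages, 14.15 to 14.50 in monocytes and 10.64 to 12.16 in cDC1s, and that of 10 detected cDC1 markers was 13.92 to 14.23 in cDC1s and 10.65 to 11.55 in the other cells. The defining cDC1 marker Xcr1 was above background on all 5 cDC1 arrays, and Clec9a too, but Flt3 was so on only 2 of them and Ccr2, a defining marker of monocytes, on 1 of the 10 monocyte arrays. Summed T cell markers reached 11.68 on WT and 11.55 on Mbd2-/- cDC1 arrays, against 8.56 to 9.69 in monocytes and macrophages. The 8 detected epithelial markers summed to 12.17 to 14.10 on all arrays, with no order by group.

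Of the 17 probes, 11 were above background on all 25 colon arrays, 16 on at least 2, and a second Junb probe on none. Each gene is described by its brightest probe. For 14 probes the table names a RefSeq transcript, which was that of the gene in every case. The other 3 (one each of Nab1, Egr3 and Junb) carry no accession, and the brightest probe of Egr3 is one of them. Probes of different genes are not compared in level.

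**Figure D1:**
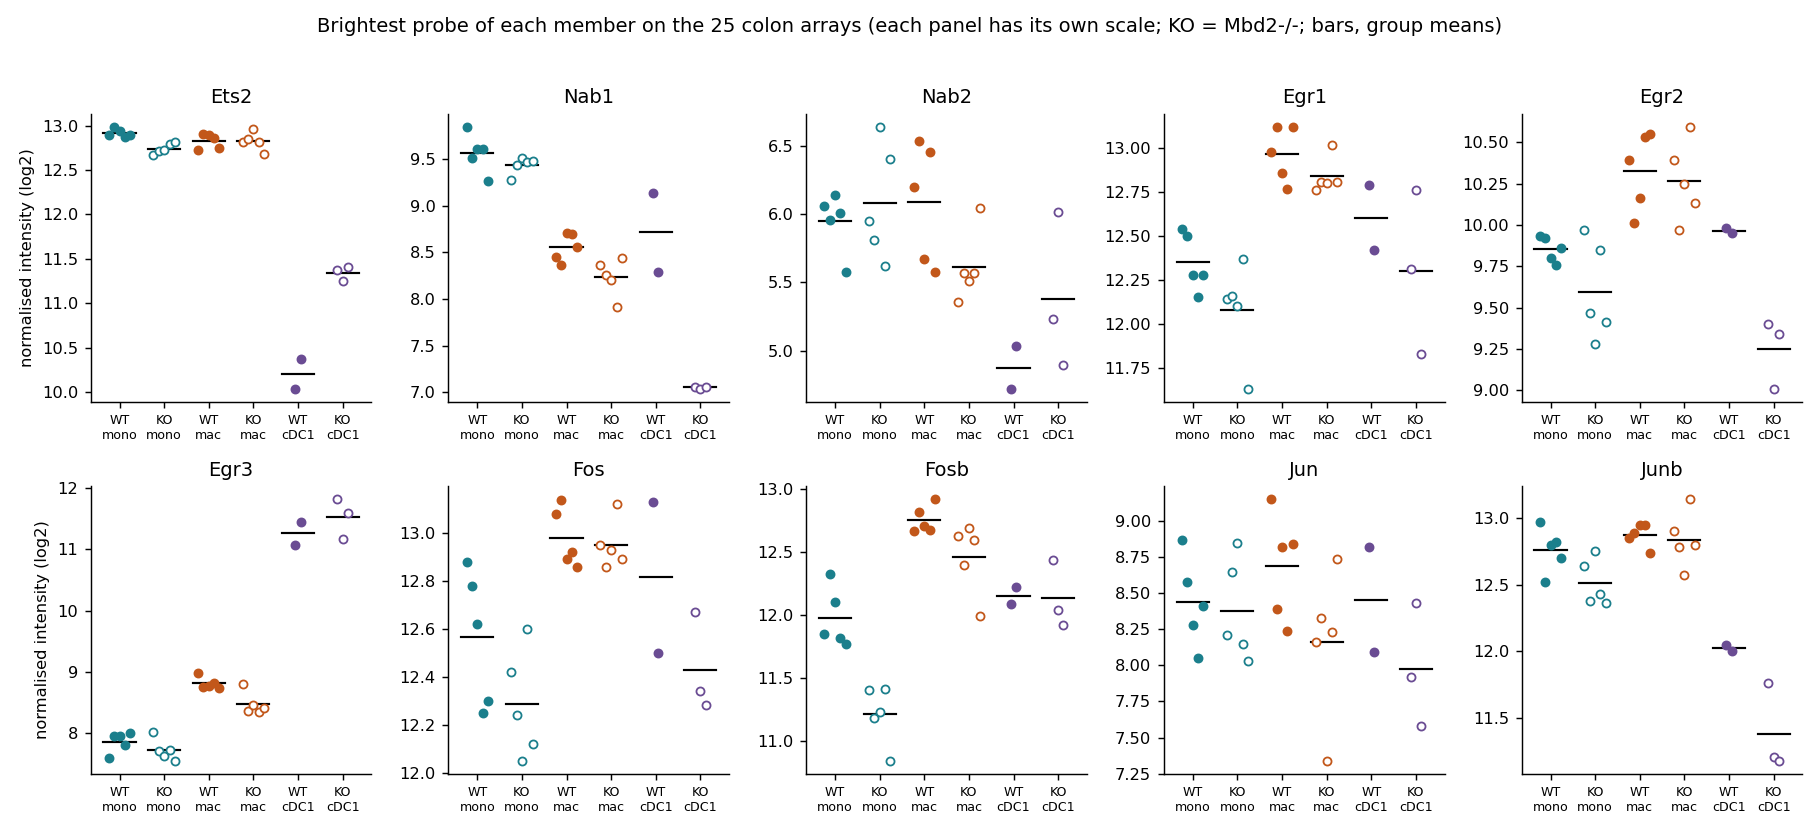
Normalised intensity (log2, one scale per gene) of the brightest probe of each of the 10 members on each of the 25 colon arrays, grouped by cell type and genotype, with filled points for WT, open points for Mbd2-/- (KO) and bars for group means. Ets2 lies at 10.04 to 11.41 on the 5 cDC1 arrays and at 12.67 to 12.98 on all monocyte and macrophage arrays. Egr3, read by a probe with no accession, lies at 11.08 to 11.82 in cDC1s and at 7.54 to 8.98 elsewhere.

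Ets2, which lies on chromosome 16, was lower in cDC1s than in both other cell types. Its level on the WT monocyte arrays was 12.89, 12.98, 12.94, 12.87 and 12.89, and on the Mbd2-/- monocyte arrays 12.67, 12.71, 12.72, 12.79 and 12.81. The WT macrophage arrays read 12.72, 12.90, 12.89, 12.86 and 12.75, and the Mbd2-/- macrophage arrays 12.82, 12.85, 12.96, 12.82 and 12.68. These 4 groups all lay between 12.67 and 12.98, with neighbours in the order of means overlapping. The cDC1s were far below: 10.04 and 10.37 on the WT arrays and 11.37, 11.25 and 11.41 on the Mbd2-/- arrays. With both genotypes averaged, Ets2 was 4.15-fold lower in cDC1s than in monocytes (log2 difference -2.05, SE 0.0662, limma adjusted p = 2.22e-17). It was 4.14-fold lower than in macrophages (-2.05, adjusted p = 2.49e-17). The cDC1 readings by which Ets2 was chosen enter both sizes and p-values, and the split by genotype is given below. Macrophages and monocytes did not differ beyond their spread (95% interval of the difference -0.12 to 0.11).

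The genotypes of cDC1s did not overlap in Ets2, and the Mbd2-/- mean was 1.14 higher (2.2-fold, n = 3 and 2). This is the value on which the gene was chosen, and 6.68% of the 17838 probes tested in that contrast passed an adjusted p of 0.05. The mean of Mbd2-/- cDC1s minus that of Mbd2-/- monocytes was -1.4 and minus that of Mbd2-/- macrophages -1.48, whereas in WT cells these differences were -2.71 and -2.62. The summed macrophage markers were 10.64 to 10.71 on the WT cDC1 arrays and 10.88 to 12.16 on the Mbd2-/- ones, with all 10 detected markers higher in mean in the Mbd2-/- group. The summed monocyte markers were 12.75 to 12.82 and 12.96 to 13.30. Their part in the Ets2 difference was not tested. In monocytes Ets2 read 0.17 lower in Mbd2-/- cells (95% interval -0.34 to -0.01) with no overlap between the groups, which held for 4.85% of all probes, but it did not pass (adjusted p = 0.315). In macrophages the interval was -0.16 to 0.17.

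Nab1, on chromosome 1, encodes a co-repressor of Egr factors, and its brightest probe had its highest levels in monocytes. The WT monocyte arrays read 9.84, 9.51, 9.61, 9.61 and 9.26, and the Mbd2-/- monocyte arrays 9.28, 9.44, 9.51, 9.47 and 9.48. The WT macrophage arrays read 8.45, 8.36, 8.71, 8.70 and 8.56, and the Mbd2-/- macrophage arrays 8.37, 8.26, 8.20, 7.91 and 8.44. Every macrophage array was thus below every monocyte array, and with both genotypes averaged Nab1 was 1.11 lower in macrophages (2.15-fold, SE 0.0952, adjusted p = 3.15e-09). In cDC1s the WT arrays read 9.14 and 8.29, a gap of 0.851 between replicates, and the Mbd2-/- arrays 7.06, 7.04 and 7.06. The Mbd2-/- mean was 3.15-fold lower (log2 difference -1.66), the value on which Nab1 was chosen. Nab1 was 3.07-fold lower in cDC1s than in monocytes (log2 difference -1.62, adjusted p = 4.91e-11). The low Mbd2-/- cDC1 readings by which the gene was chosen enter this size and p-value. Split by genotype, the difference was -0.85 in WT cells (1.81-fold, limma adjusted p = 0.000518) and -2.38 in Mbd2-/- cells. Against macrophages Nab1 was 0.51 lower (adjusted p = 0.000927). This value rests on the low Mbd2-/- cDC1 readings by which the gene was chosen: split by genotype, the difference was -1.18 in Mbd2-/- cells and 0.16 in WT cells.

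Nab1 has 6 probes, 5 of them assigned to its RefSeq transcript, and they did not give one picture. The second brightest was above background on all 25 arrays and had the same order of cell types, with differences from monocytes of -1 in macrophages and -1.85 in cDC1s (adjusted p = 1.63e-06 and 9.94e-10). In cDC1s it read 7.12 and 7.88 in WT and 6.45 to 7.18 in Mbd2-/-, a mean 0.72 lower with overlapping groups. Probes 4 and 5 lay near background, which probe 4 exceeded on 21 and probe 5 on 13 of the 25 arrays. Probe 5 was above it on none of the WT macrophage arrays, 3 of the 5 Mbd2-/- macrophage arrays and 3 of the 5 cDC1 arrays. Unlike the brightest probe, both read higher in cDC1s than in macrophages (0.70 and 0.74, limma adjusted p = 0.0753 and 0.0323). In WT cells these differences were 1.46 and 1.52 (adjusted p = 0.0165 and 0.00545), and in Mbd2-/- cells -0.06 and -0.03. The means of probes 4 and 5 were highest in WT cDC1s (6.04 and 5.92) through array 23 (6.78 and 6.49), and Mbd2-/- macrophage array 20 read 6.90 and 6.27. In cDC1s the Mbd2-/- mean was 0.91 lower on probe 4, with overlap, and 1.13 lower on probe 5. Probe 3, which has no accession and was above background on 2 of the 5 cDC1 arrays, showed a cDC1 genotype difference of -0.02, and probe 6 was above background on 4 arrays, none of them a cDC1 array.

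**Figure D2:**
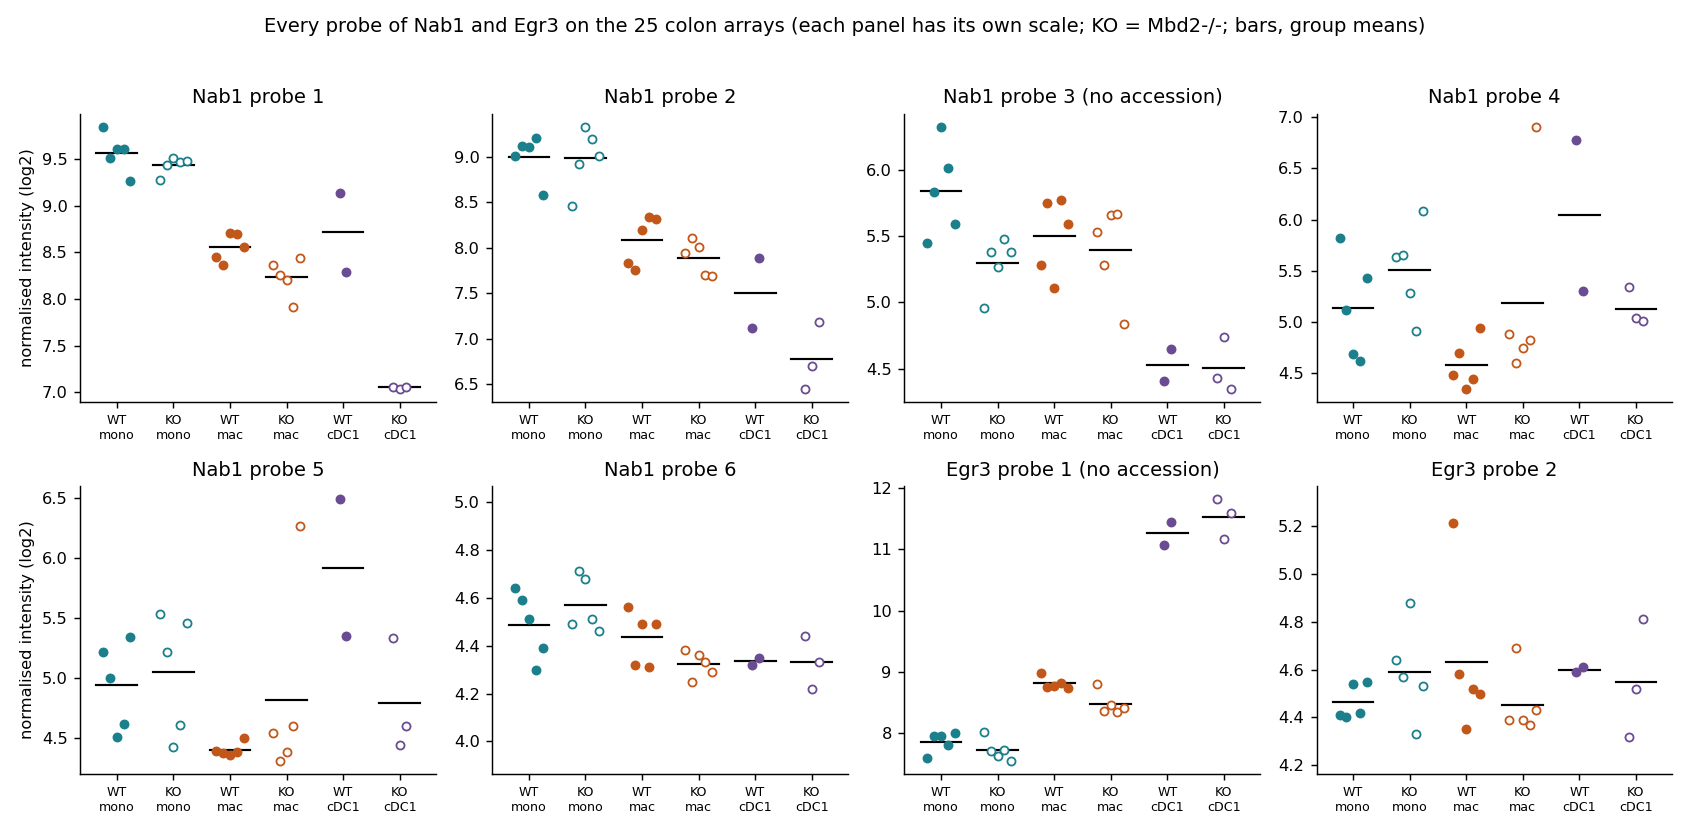
Normalised intensity (log2, one scale per panel) of all 6 Nab1 probes and both Egr3 probes on each of the 25 colon arrays, with filled points for WT, open points for Mbd2-/- (KO) and bars for group means. Nab1 probes 1 and 2 have their highest means in monocytes, while probes 4 and 5 lie near background and have single high arrays (Mbd2-/- macrophage array 20 at 6.90 and 6.27, WT cDC1 array 23 at 6.78 and 6.49), and Egr3 probe 2 stays between 4.32 and 5.21 in every group where probe 1 spans 7.54 to 11.82.

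Nab1 did not pass between genotypes outside cDC1s. It read 0.13 lower in Mbd2-/- monocytes (95% interval -0.41 to 0.15) and 0.32 lower in Mbd2-/- macrophages (-0.60 to -0.04, adjusted p = 0.153). Nab2, the second co-repressor, on chromosome 10, was read by a dim probe, at most 1.22% of the brightest probe of its array. It spanned 5.58 to 6.64 in monocytes and 5.36 to 6.54 in macrophages, and in cDC1s it read 4.72 and 5.03 in WT and 5.23, 6.02 and 4.89 in Mbd2-/-. It was lower in cDC1s than in monocytes by 0.89 (adjusted p = 0.000671) and than in macrophages by 0.73 (adjusted p = 0.00446), and the size of both depended on the background correction (-0.35 and -0.28 with none). Against macrophages it did not pass among Mbd2-/- arrays alone (-0.23, adjusted p = 0.503). The Mbd2-/- cDC1 mean was 0.51 higher with overlapping groups, opposite in sign to Nab1. Between genotypes Nab2 read 0.14 higher in Mbd2-/- monocytes and 0.48 lower in Mbd2-/- macrophages (adjusted p = 0.855 and 0.198).

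Of the Egr factors, Egr1 and Egr2 had their highest means in macrophages. Egr1, on chromosome 18, read 12.76 to 13.12 in macrophages, 11.63 to 12.54 in monocytes and 11.83 to 12.79 in cDC1s. Egr2, on chromosome 10, read 9.97 to 10.59 in macrophages, 9.28 to 9.97 in monocytes and 9.01 to 9.98 in cDC1s. Macrophages were higher than monocytes by 0.69 in Egr1 (adjusted p = 1.52e-05) and by 0.57 in Egr2 (adjusted p = 7.25e-05). Both were lower in cDC1s than in macrophages, Egr1 by 0.45 (adjusted p = 0.00638) and Egr2 by 0.69 (adjusted p = 5.42e-05), but Egr1 no longer passed without the WT cDC1 array 26 (-0.36, adjusted p = 0.0736). With WT arrays alone neither gene passed against macrophages (Egr1 -0.36 and Egr2 -0.37, adjusted p = 0.154 and 0.127). Among Mbd2-/- arrays these differences were -0.54 and -1.02. Neither gene passed between cDC1s and monocytes, with 95% intervals of -0.03 to 0.51 and -0.37 to 0.13, although Egr1 passed with cyclic loess (0.38, adjusted p = 0.0487) and Egr2 with median scaling (-0.73, adjusted p = 0.0134). In cDC1s, Egr2 read 9.98 and 9.95 in WT and 9.40, 9.01 and 9.34 in Mbd2-/-, with no overlap and a mean 0.71 lower, and Egr1 read 12.79 and 12.42 in WT and 12.31, 12.76 and 11.83 in Mbd2-/-, with overlap and a mean 0.31 lower.

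The probe named Egr3 behaved differently from both. It read 11.08 and 11.45 in WT cDC1s and 11.82, 11.17 and 11.60 in Mbd2-/- cDC1s, against 8.73 to 8.98 in WT macrophages, 8.33 to 8.80 in Mbd2-/- macrophages, 7.58 to 8.00 in WT monocytes and 7.54 to 8.01 in Mbd2-/- monocytes. The 3 cell types did not overlap. cDC1s were 3.61 above monocytes (12.2-fold, SE 0.11, adjusted p = 8.6e-18) and 2.76 above macrophages (6.76-fold, adjusted p = 1.04e-15), the largest differences among the members, and macrophages were 0.85 above monocytes (adjusted p = 7.92e-08). That probe carries neither an accession nor a chromosome in the table. The Egr3 probe that is assigned to the RefSeq transcript, on chromosome 14, was above background on 6 of 25 arrays and differed between cDC1s and monocytes by 0.05 (95% interval -0.19 to 0.29). The cell type pattern is therefore that of the unassigned probe. Egr3 was 0.34 lower in Mbd2-/- macrophages (95% interval -0.60 to -0.08), the smallest adjusted p of the members there, but it did not pass (adjusted p = 0.107).

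Among the AP-1 subunits, Fosb, on chromosome 7, was the member that passed between genotypes. The WT monocyte arrays read 11.85, 12.33, 12.10, 11.82 and 11.77, and the Mbd2-/- monocyte arrays 11.40, 11.18, 11.23, 11.41 and 10.84. Every Mbd2-/- array was below every WT array, and the mean fell by 0.76 on the log2 scale (1.7-fold, SE 0.143, adjusted p = 0.00514). In this contrast 1.8% of 16190 probes passed, 0.945% as lower in Mbd2-/- cells, and Fosb was 1 of the 10 members to do so. Within the 2 blocks that hold monocytes the difference was -0.97 and -0.53. With arrays scaled to a common median in place of quantile normalisation, the difference was -1, or -0.74 relative to the median of all probes (-0.26), and its adjusted p was 0.0752. The summed markers of neutrophils (9.00 to 10.47 in WT and 9.55 to 10.60 in Mbd2-/- monocytes) and of T cells (8.56 to 9.59 and 8.64 to 8.99) overlapped between the groups, as did those of eosinophils (9.67 to 10.30 and 10.27 to 10.79). Those of B and plasma cells did not, at 8.64 to 8.95 in WT and 7.83 to 8.60 in Mbd2-/- monocytes. Their part in the Fosb difference was not tested.

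**Figure D3:**
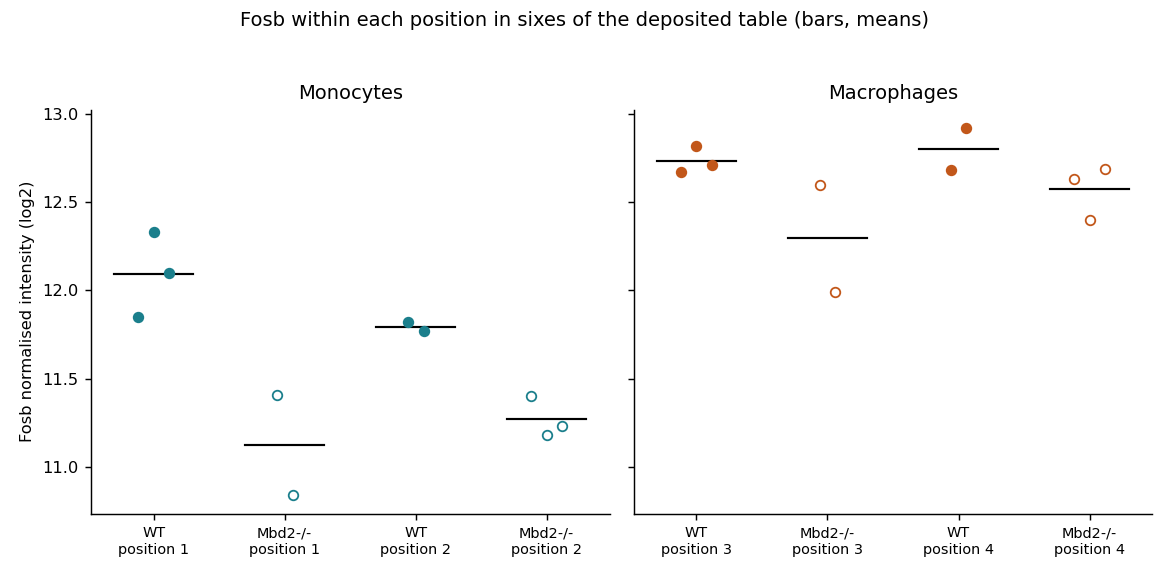
Normalised intensity of Fosb (log2) in monocytes and macrophages, split by the block of 6 columns of the table that each array lies in (positions 1 to 4), with filled points for WT, open points for Mbd2-/- and bars for means. In both monocyte positions every Mbd2-/- array, at most 11.41, lies below every WT array, at least 11.77, and in macrophages the genotypes lie closer, with mean differences of -0.44 and -0.23.

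In macrophages Fosb read 12.67, 12.82, 12.71, 12.68 and 12.92 in WT and 12.63, 12.40, 12.69, 12.60 and 11.99 in Mbd2-/-. The groups overlapped, and the mean was 0.30 lower (95% interval -0.60 to 0.00, adjusted p = 0.205). The test of the difference between the cell types gave 0.46 (unadjusted p = 0.0318, adjusted p = 0.689), so the genotype difference of Fosb was not shown to differ between macrophages and monocytes. In cDC1s Fosb read 12.09 and 12.22 in WT and 12.44, 12.04 and 11.92 in Mbd2-/-, a mean difference of -0.02. By cell type, Fosb was 1.02 higher in macrophages than in monocytes (2.03-fold, adjusted p = 3.05e-08). It was 0.55 higher in cDC1s than in monocytes (adjusted p = 0.000784) but 0.02 lower with median scaling, and did not pass with WT arrays alone (0.18, adjusted p = 0.497). Fosb was 0.47 lower in cDC1s than in macrophages (adjusted p = 0.00352), and did not pass with Mbd2-/- arrays alone (-0.33, adjusted p = 0.111).

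Fos, on chromosome 12, read 12.86 to 13.14 in macrophages, 12.05 to 12.88 in monocytes and 12.28 to 13.13 in cDC1s. It was 0.54 higher in macrophages than in monocytes (adjusted p = 0.000141), and 0.34 lower in cDC1s than in macrophages (adjusted p = 0.0254). The latter rested on single arrays: it was 0.18 lower (adjusted p = 0.329) without the WT cDC1 array 26 and no longer passed without either of the Mbd2-/- cDC1 arrays 28 and 30 (adjusted p = 0.0552 and 0.0669). With WT arrays alone the difference was -0.16 (adjusted p = 0.517). Between genotypes Fos read 0.28 lower in Mbd2-/- monocytes (adjusted p = 0.383) and 0.38 lower in Mbd2-/- cDC1s, with overlap in both, and in macrophages the interval was -0.31 to 0.26.

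Junb, on chromosome 8, followed Ets2 in being lowest in cDC1s, although by less. It read 12.36 to 12.97 in monocytes and 12.57 to 13.14 in macrophages, against 12.05 and 12.00 in WT cDC1s and 11.76, 11.21 and 11.18 in Mbd2-/- cDC1s. Every cDC1 array was below every other array, and the differences were -0.93 from monocytes (adjusted p = 8.87e-08) and -1.15 from macrophages (adjusted p = 2.84e-09). The genotypes of cDC1s did not overlap, with the Mbd2-/- mean 0.64 lower. In monocytes Junb read 0.25 lower in Mbd2-/- cells (adjusted p = 0.359). Jun, on chromosome 4, varied within groups (SD 0.31 to 0.518) and passed in none of these comparisons, although with median scaling it passed as lower in cDC1s than in monocytes (-0.71, adjusted p = 0.009) and than in macrophages (-0.73, adjusted p = 0.00709). It read 7.34 to 9.15 over all 25 arrays, and its genotype differences were -0.06 in monocytes (95% interval -0.56 to 0.44), -0.53 in macrophages (-1.03 to -0.03, adjusted p = 0.186) and -0.48 in cDC1s.

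**Figure D4:**
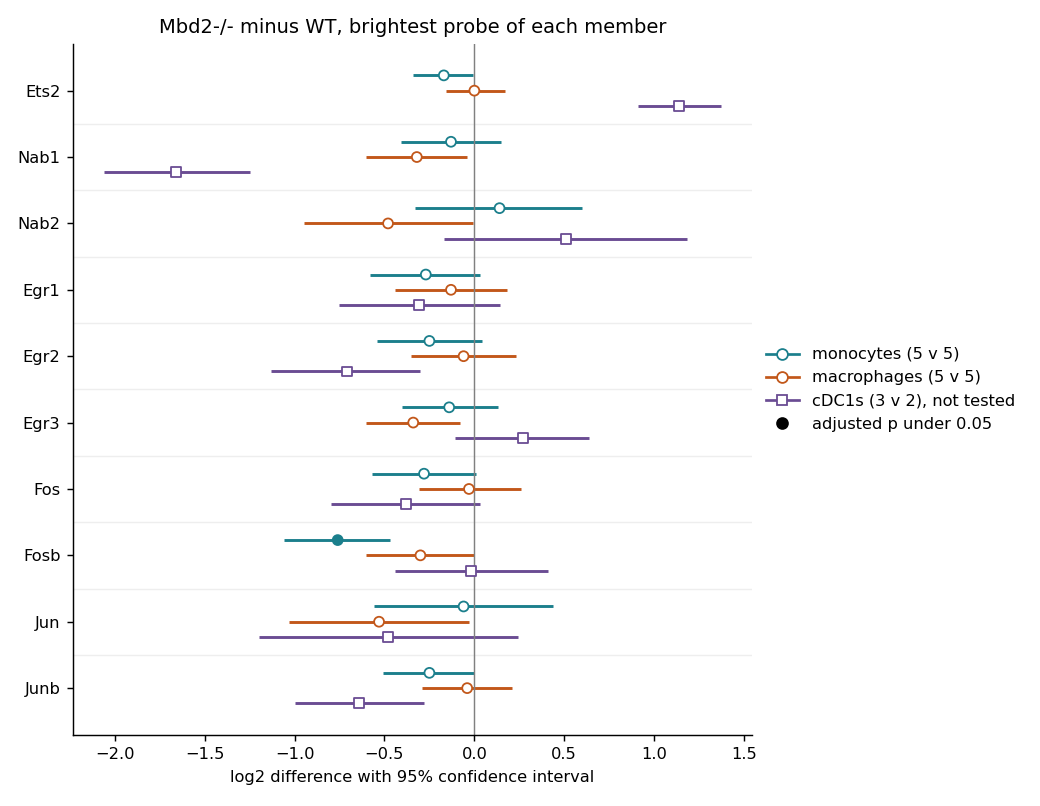
Difference between Mbd2-/- and WT (log2) for the brightest probe of each member, with its 95% confidence interval, in monocytes, macrophages and cDC1s. Filled circles passed an adjusted p of 0.05, open circles did not, and the cDC1 values (squares) were not tested because they chose the members. The cDC1 intervals take their spread from the arrays of all cell types and are not to be read as a test. Fosb in monocytes (-0.76) is the only filled point, and in cDC1s Ets2 (1.14) and Nab1 (-1.66) lie farthest from 0.

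Set side by side, the genotype differences of the 10 members were mostly small outside cDC1s. In monocytes 9 of 10 were negative (median -0.21, range -0.76 to 0.14), against a median of -0.0203 and 53.9% negative over all probes tested. In macrophages 9 of 10 were also negative (median -0.22, range -0.53 to 0.00) against a median of -0.0659 and 60.4% negative, and 0 of 10 passed in limma where 5.6% of 16834 probes did. The genotypes overlapped in macrophages for all 10 members, whereas 5.29% of all probes did not overlap. At an unadjusted p under 0.05 there were 5 members in macrophages and 3 in monocytes, against 23.6% and 13.8% of all probes. The difference between the effects in macrophages and in monocytes passed for 0 of 10 members (smallest adjusted p = 0.689, 1 member at an unadjusted p under 0.05) and for 0.0266% of 18792 probes. In cDC1s the described values ran from -1.66 to 1.14 with 7 of 10 negative and a median of -0.34, and 4 members (Ets2, Nab1, Egr2 and Junb) had groups that did not overlap, where with 3 arrays against 2 this held for 31.8% of all probes. With median scaling the difference in Mbd2-/- cDC1s was 0.66 for Ets2, -2.15 for Nab1, -1.25 for Egr2 and -1.08 for Junb. The sign of Egr3 turned there, from 0.27 to -0.16. The median of all probes moved to -0.367. Relative to it the difference was 1.03 for Ets2, -1.78 for Nab1, -0.89 for Egr2, -0.71 for Junb and 0.2 for Egr3.

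Between cell types more of the members passed. Egr3 is counted here by its bright probe with no accession. The probe assigned to its transcript did not show the cDC1 differences (0.05 from monocytes and 0.03 from macrophages). From monocytes to macrophages 5 members were higher (Egr1, Egr2, Egr3, Fos and Fosb, where 18.6% of 18792 probes passed as higher) and Nab1 was lower (15.6% of probes). Junb missed the threshold (0.22 higher, adjusted p = 0.0508) and passed under several alternatives. From monocytes to cDC1s, Egr3 and Fosb were higher (23.4% of 22541 probes passed as higher) and Ets2, Nab1, Nab2 and Junb lower (20% passed as lower). Fosb did not pass there with WT arrays alone. From macrophages to cDC1s, Egr3 was higher (22.6% of 23337 probes) and 8 of 10 members were lower, all but Egr3 and Jun, where 19.8% of probes passed as lower. With WT arrays alone only 4 members passed as lower in that comparison, and Nab1, Egr1, Egr2 and Fos did not. In bulk samples such as these, fewer cells that carry a transcript and less of it in each cell cannot be told apart. T cell markers were higher in cDC1s than in monocytes for 5 of 7 tested and than in macrophages for 4 of 8, and all 10 macrophage markers tested were lower in cDC1s in both comparisons. Their part in the member differences was not tested.

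**Figure D5:**
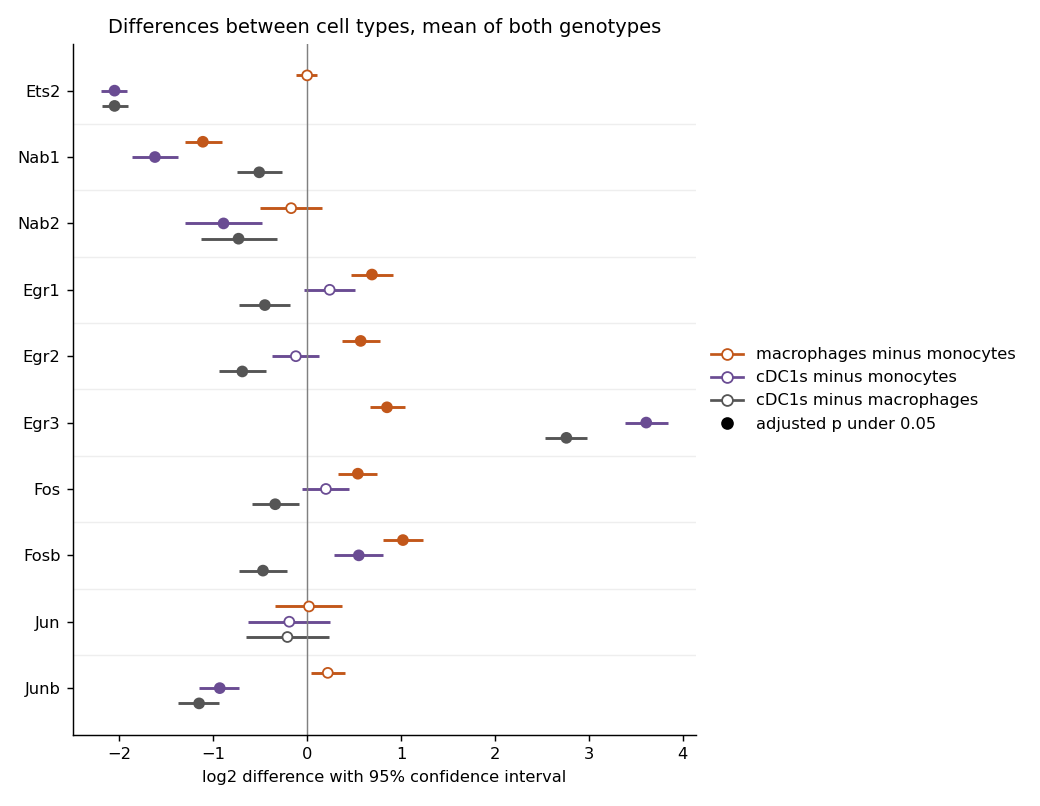
Difference between cell types (log2), both genotypes averaged, for the brightest probe of each member, with its 95% confidence interval. Filled points passed an adjusted p of 0.05. Ets2 lies at -2.05 for both cDC1 comparisons and at 0 between macrophages and monocytes. Egr3, read by a probe with no accession, lies at 3.61 and 2.76, and Jun has no filled point.

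The cDC1 differences can also be read within a block of 6 columns, where each WT cDC1 array lay with WT monocytes and 2 of the 3 Mbd2-/- cDC1 arrays with Mbd2-/- macrophages. These are differences of single cDC1 arrays from the mean of the 2 or 3 arrays beside them, with no test. Egr3 is again its probe with no accession. For WT cDC1s against WT monocytes, Ets2 differed by -2.89 and -2.51, Egr3 by 3.26 and 3.55, Nab1 by -0.52 and -1.15, Nab2 by -1.34 and -0.77, and Junb by -0.71 and -0.77. These signs were those of the comparison over both genotypes, whereas Fosb differed by 0 and 0.42. For Mbd2-/- cDC1s against Mbd2-/- macrophages, Ets2 differed by -1.38 and -1.63, Egr3 by 3.46 and 2.63, Junb by -1.21 and -1.54, Nab1 by -1.11 and -1.24, and Egr2 by -0.96 and -1.19. There Egr1 (-0.61 and -0.02) and Fos (-0.33 and -0.57) varied in size, and Fosb, Jun and Nab2 had opposite signs in the 2 blocks.

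Other genes of the same pathways were read from lists of known family members, and their calls are to be read against those of all probes. From monocytes to macrophages 18.6% of all probes passed as higher and 15.6% as lower. For cDC1s these shares were 23.4% and 20% against monocytes, and 22.6% and 19.8% against macrophages. Among other immediate early genes, 10 of 21 passed between macrophages and monocytes, 6 of them higher, and the largest were Rhob (0.91), Klf2 (0.76), Atf3 (0.75) and Zfp36 (0.62). The median of that list was 0.0609, against 0.38 for the 10 members. In cDC1s against monocytes 16 of 23 passed, 6 higher and 10 lower, with Ier3 at -1.98, Socs3 at -1.68 and Dusp2 at -1.56 but Nr4a3, an orphan nuclear receptor, at 1.6. Against macrophages, Nr4a2 (1.89) and Nr4a3 (1.5) were higher in cDC1s while Ier3 (-1.82) and Rhob (-1.61) were lower, with 4 of 23 higher and 10 lower. Immediate early genes thus differed in both directions between the cell types, as the members did.

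The other ETS factors were lower in cDC1s wherever they passed. Against monocytes 5 of 16 were lower (20% of all probes) and 0 higher (23.4%). Spic, a factor of red pulp and other tissue macrophages (-3.30), and Elk3 (-2.07) led, with Etv5 at -0.84 and Etv1 at -0.80. Against macrophages 6 of 16 were lower (19.8% of all probes) and 0 higher (22.6%), with Spic at -4.64, Etv1 at -1.91, Etv5 at -1.83 and Elk3 at -1.68. Between macrophages and monocytes 5 of 15 were higher (18.6% of all probes) and 2 lower (15.6%). There Spic (1.34), Etv1 (1.11), Etv5 (0.98) and Ets1 (0.69) led, whereas Ets2 did not differ.

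The list of MAP kinase feedback genes held mostly phosphatases and Sprouty relatives that damp the cascade upstream of the members. It also held Tob1, Tob2 and Errfi1, which are of neither kind. Of the genes on this list, 8 of 13 were lower and 2 higher in cDC1s, against both monocytes and macrophages. Of all probes, 20% were lower and 23.4% higher in cDC1s against monocytes, and 19.8% and 22.6% against macrophages. Between macrophages and monocytes these shares were 18.6% higher and 15.6% lower. Dusp6, which inactivates ERK, differed by -2.06 from monocytes and -2.48 from macrophages, Spred1 by -1.93 and -2.89, Dusp7 by -1.74 and -1.88, and Dusp2 by -1.56 and -1.1. Between macrophages and monocytes 3 of 13 were higher and 2 lower, with Spred1 at 0.96, Dusp16 at -0.61, Dusp2 at -0.45 and Dusp6 at 0.42. Among the other AP-1 family factors, 7 of 15 were lower and 2 higher in cDC1s than in monocytes, with Batf2 at -2.30, Batf3, which cDC1s need to develop, at 2.01 and Batf at -1.32. Against macrophages 8 were lower and 2 higher (Batf3 2.24, Batf2 -1.35, Fosl2 -1.02). Between macrophages and monocytes 4 were higher and 4 lower (Batf2 -0.96, Batf -0.78, Atf3 0.75, Maf 0.54).

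Heat shock genes, which are also induced when tissue is handled, were higher in macrophages than in monocytes for 10 of 13 (18.6% of all probes). Hspa1a (1.36), Hspa1b (1.31), Bag3 (0.67) and Hspd1 (0.66) led. These genes were higher in cDC1s than in monocytes for 9 of 13 (23.4% of all probes), led by Hspa1b (1.79), Hspa1a (1.48), Hsp90aa1 (1.15) and Hsp105 (1.08). They moved with Egr1, Egr2, Fos and Fosb in the first of these comparisons, and their part in it was not tested. Between genotypes the lists held few calls, to be read against the 1.8% of all probes that passed in monocytes and the 5.6% in macrophages. In monocytes 1 of 21 other immediate early genes was lower (Klf2, -0.60, adjusted p = 0.0327) and 1 of 13 other AP-1 family factors higher (Batf2, 1.55, adjusted p = 0.0303). In macrophages 1 of 14 ETS factors was higher (Spic, 1.56, adjusted p = 0.000103) and 1 of 11 feedback genes higher (Tob1, 0.95, adjusted p = 0.0353). No heat shock gene passed between genotypes on its brightest probe in either cell type. In cDC1s, as a description from the contrast that chose members, the largest differences on the lists went both ways. Nr4a2 (-1.28), Tob2 (-1.16), Hsp90aa1 (-1.15) and Elf1 (-0.88) were lower in Mbd2-/- cells, and Batf2 (1.28) and Mafk (0.88) higher.

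Within groups, the immediate early factors varied together only in part. Over the 25 arrays, the deviations of Egr1, Egr2, Fos, Fosb, Jun and Junb from their group means gave 13 positive correlations among 15 pairs (r from -0.23 to 0.57, median 0.22), highest for Egr1 with Fos (0.57) and Egr1 with Jun (0.51). With Egr3 added, 16 of 21 pairs were positive, and Egr3 ran against Egr1 (-0.32) and Jun (-0.31). The deviations of Ets2 ran against those of Jun (-0.71), Egr1 (-0.42) and Nab1 (-0.41), but with median scaling these values were 0.07, 0.56 and 0.70, so their sign depends on the normalisation. These values are descriptions, since arrays of one block share a position and all arrays were normalised together, and the deviations of Fos (0.48) and Ets2 (0.42) also followed the mean intensity of the array. The genes whose deviations were most like those of Ets2 among 14954 probes were Skil, Kif5a, Atr, Cul1 and Rb1 (r from 0.81 to 0.84). For Nab1 they were Sdccag1, LOC100046746, Wdr45l, Terf2 and Ddx21 (0.81 to 0.87), and for Fos they were Pla2g3, Clca6, LOC675933, Mast3 and LOC100047834 (0.83 to 0.89). With median scaling, 0 of these 5 genes were shared for Ets2, 1 for Nab1 and 0 for Fos, so the lists describe this normalisation.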

How the data were processed

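Total RNA from sorted cells was hybridised to Illumina MouseWG-6 BeadChips. The authors deposited raw probe intensities, with no background subtraction or normalisation, along with p-values of detection and bead standard errors. Their processing notes name lumi and limma, with versions not given in the sources used here. Arrays give no read depth, and their number limits the precision. Here, the 25 colon arrays were corrected with the 936 negative control probes (normexp, offset 16), quantile normalised and put on the log2 scale (R 4.3.3, limma 3.58.1, data.table version 1.17.8). Probes with a detection p under 0.05 on at least 2 arrays were candidates for the brightest probe of a gene. One limma model of 6 groups with Benjamini-Hochberg adjustment over all probes of a comparison gave the tests, at an adjusted p of 0.05. This model alone was tried on simulated log2 values, for the genotype contrasts in monocytes and macrophages. Background correction, normalisation and the other contrasts were not part of that trial. All 10 members are named by their brightest probe, with up to 4 passing genes with the largest difference from each list and the 5 genes most like Ets2, Nab1 and Fos. For the genotypes of cDC1s, list genes are named by the size of their difference alone. Some genes that meet this rule are not reported here. The members and lists were chosen with earlier results of these data known. Samples were grouped by the labels. The spleen T cell arrays were not analysed here, and 3 signal columns that match no sample of the series were not used. Alternatives were other background corrections, scalings, filters, thresholds, array weights, position as a block, each cell type or genotype alone, and leaving out each array.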

Additional observations from a re-analysis of the deposited data

Results flagged for a closer look

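In the 40 groups of 5 arrays examined, a single array stood apart from the other 4 of its group on 2 occasions, and chance gives about 2. Egr1 read 13.02 on the Mbd2-/- macrophage array 19, where the nearest other array read 12.81, a gap of 0.81 of the group's range. Egr3 read 8.80 on the Mbd2-/- macrophage array 16, where the nearest other array read 8.46, a gap of 0.72 of the range.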

How the results depend on the processing

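The signs and calls of the members held under most alternatives, and the cause of the exceptions was not tested. Counts of passing probes moved with many settings. Between genotypes in monocytes (291 probes), 77 passed with median scaling, 176 with no filter on dim probes, 869 with array weights, 97 at an adjusted p of 0.01 and 69 at a log2 difference of at least 1. In macrophages (943) these were 186 with median scaling, 389 with no filter, 76 with each cell type alone, 141 at 0.01 and 254 at a difference of at least 1. In cDC1s (1192) they were 666 with median scaling, 0 alone, 189 with array weights, 213 at 0.01 and 345 at a difference of at least 1. The interaction (5) gave 0 with no background correction, median scaling, cyclic loess or 0.01, and 11 with array weights. Macrophages against monocytes (6426) gave 3865 with median scaling, 3880 with WT arrays alone and 823 at a difference of at least 1, and cDC1s gave 3087 against monocytes (9766) and 3002 against macrophages (9890) at that difference. Median scaling also moved the split of calls, to 22 higher and 55 lower in monocytes (138 and 153), 152 and 34 in macrophages (513 and 430) and 17 and 649 in cDC1s (612 and 580). Of the members, 0 passed between genotypes in monocytes with median scaling or a difference of at least 1, where 2 (macrophages against monocytes), 3 and 3 (cDC1s against monocytes and against macrophages) passed between cell types, and 5 did so for cDC1s against macrophages with WT arrays alone.

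Leaving out 1 array gave 138 (without WT array 2) to 377 probes (without WT array 4) in monocytes, 284 (without WT array 12) to 1595 (without WT array 15) in macrophages, 491 (without Mbd2-/- array 30) to 2408 (without WT array 26) in cDC1s and 0 to 9 for the interaction. Fosb in monocytes passed in all 10 of these, and its adjusted p over all alternatives ranged from 0.000737 to 0.0752. Members passing ranged from 6 to 7 for macrophages against monocytes, 6 to 7 and 7 to 9 for cDC1s against monocytes and macrophages. Signs near 0 turned: Jun in monocytes ranged from -0.18 to 0.05 and Nab2 from 0 to 0.25, in macrophages Ets2 from -0.03 to 0.04, Egr2 from -0.15 to 0.01, Fos from -0.07 to 0.01 and Junb from -0.12 to 0.03, and between macrophages and monocytes Ets2 from -0.02 to 0.01 and Jun from -0.06 to 0.12.

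With median scaling the sign turned for Nab2 in monocytes (-0.11), Ets2 in macrophages (-0.03) and, for cDC1s against monocytes, Egr1 (-0.26), Fos (-0.29) and Fosb (-0.02, adjusted p = 0.964), where the median of all probes was -0.145. Between genotypes in cDC1s the sign turned for Egr3 with median scaling (-0.16) and for Fosb with cyclic loess (0.12). With cyclic loess it turned for Fos (0.06) and Junb (0.04) in macrophages and Ets2 (0.03) between macrophages and monocytes, with array weights for Fos in macrophages (0) and Jun between macrophages and monocytes (-0.02), and with position as a fixed term for Fos (0.01) and Junb (0) in macrophages. With WT arrays alone it turned for Nab2 (0.14) between macrophages and monocytes, Egr2 (0.11) and Jun (0.02) for cDC1s against monocytes and Nab1 (0.16) for cDC1s against macrophages, and with Mbd2-/- arrays alone for Ets2 (0.09) and Jun (-0.22) between macrophages and monocytes. Fos did not pass between macrophages and monocytes with median scaling (adjusted p = 0.0686), nor, for cDC1s against macrophages, with cyclic loess (0.179) or array weights (0.0623), and Egr1 did not with cyclic loess (0.0856). Fos passed as higher in cDC1s than in monocytes with cyclic loess (0.35, adjusted p = 0.0274). No paired analysis was made, because the labels do not say which arrays came from the same mice or the same experiment.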
